A study of Homo sapiens with 4 samples.

Results

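The cytosolic ribosomal protein genes were examined in A549 and H1299, both human lines of non-small cell lung cancer, after transfection with siRNA against hMOF or of a scramble siRNA. Members were taken by gene symbol, as RPL or RPS with a number and its A, X or L forms and the stalk protein genes, from probe sets annotated to exactly 1 gene. This gave 59 genes, 38 of the large and 21 of the small subunit, on 120 probe sets, of 19775 genes named in the same way on the array. Each gene was read from its probe set with the highest mean signal over the 4 arrays. Signals are MAS5 values on a linear scale, and 56 of the 59 genes passed the minimum of 78.1 that was set for all genes (the median of the probe set means). The 3 that did not were RPL10L, RPL3L and RPL36A, with mean signals of 33.4, 29.3 and 57.2. A probe set annotated to RPL36A together with RPL36A-HNRNPH2 had a mean signal of 8912, but the rule of exactly 1 gene left it out.

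The 4 groups were A549 with scramble siRNA, A549 with hMOF siRNA, H1299 with scramble siRNA and H1299 with hMOF siRNA, each with 1 array of total RNA from whole cultures. hMOF is the histone acetyltransferase encoded by KAT8. A549 is a line from a lung adenocarcinoma and H1299 a line from a lymph node metastasis, and both were transfected with the same lipid reagent. With 1 array a group, the siRNA comparison had no repeats besides the lines. The labels do not name separate cultures. The p values therefore reflect no more than the scatter of these 4 arrays, which may be technical and is taken largely from all genes together. The source names set the groups, and the treatment tag of 2 arrays contradicts them. KAT8 followed the source names. Under hMOF siRNA it fell from 402 to 106 in A549 and from 241 to 61.8 in H1299 (limma adjusted p = 0.0288). The epithelial markers KRT8, KRT18, KRT19, EPCAM and CDH1 had higher signal in A549 than in H1299 on every array, with CDH1 at 1535 and 1562 against 8.04 and 7.61. The mesenchymal markers went both ways, with VIM and ZEB1 higher on both H1299 arrays and CDH2 and FN1 higher on both A549 arrays. The 6 alveolar type II markers that were measured did not all pass the signal minimum, which is set on the mean over arrays. SFTPB, SFTPC, ABCA3 and LAMP3 lay above it, and NKX2-1 and SFTPD below it. LAMP3 passed through H1299 alone, with 445 (scramble) and 232 (hMOF siRNA) there against 46.4 and 10.8 in A549. The immune marker CD3E and the endothelial markers PECAM1 and VWF also passed the minimum, so passing is no proof of expression. Less RNA per cell and fewer cells with a transcript cannot be told apart on such arrays.

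As background, the cytosolic ribosome is built from a large and a small subunit, each a scaffold of ribosomal RNA covered by many small proteins, nearly all of which are made in equal numbers. Most of their mRNAs begin with a C and a run of pyrimidines, the terminal oligopyrimidine or TOP motif, through which mTORC1 and LARP1 adjust their translation together. A few genes encode divergent paralogs, such as RPL22L1, RPL26L1, RPL39L and RPS27L, which resemble a core protein but are transcribed from their own promoters. The remaining members are called core genes here.

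The TOP motif lies at the start of the transcript, so promoter stretches of 3 paralogs whose signals varied over 2-fold between arrays and of 2 bright core genes are shown. They were taken from RefSeq on GRCh38.p14, whose promoter table holds 49 of the 56 genes, 45 core genes and 4 paralogs. Each runs from 100 bases before the annotated start to 15 bases after it on the gene's own strand. Capitals mark the longest run of at least 5 pyrimidines within 10 bases of the annotated start. The paralogs lie at chr5:172958629-172958743 (plus strand), chr3:170870181-170870295 (minus strand) and chr15:63157463-63157577 (minus strand), and the core genes at chr5:82278340-82278454 (minus strand) and chr2:216498744-216498858 (plus strand).
RPL26L1: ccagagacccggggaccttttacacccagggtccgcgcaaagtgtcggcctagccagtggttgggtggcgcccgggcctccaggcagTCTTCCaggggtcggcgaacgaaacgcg
RPL22L1: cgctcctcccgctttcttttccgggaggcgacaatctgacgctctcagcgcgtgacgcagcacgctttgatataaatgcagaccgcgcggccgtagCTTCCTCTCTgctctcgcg
RPS27L: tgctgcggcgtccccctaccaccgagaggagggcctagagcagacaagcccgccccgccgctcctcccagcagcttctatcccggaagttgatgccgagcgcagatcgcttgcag
RPS23: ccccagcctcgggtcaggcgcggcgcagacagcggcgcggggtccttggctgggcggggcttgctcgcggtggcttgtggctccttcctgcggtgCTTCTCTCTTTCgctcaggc
RPL37A: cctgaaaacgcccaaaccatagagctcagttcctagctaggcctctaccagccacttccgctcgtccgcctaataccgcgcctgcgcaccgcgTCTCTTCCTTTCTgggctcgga
RPS23, RPL37A and RPL22L1 have a pyrimidine run across the annotated start, of 12, 13 and 10 bases. RPL26L1 has a run of 6 bases that lies wholly before its start, and RPS27L has none.

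Among the 45 core genes, 32 had C as the annotated first base followed by 4 bases that were each C or T, which is 71.1%, against 4.07% of the 35116 promoters in the table. Of the 4 paralogs, RPL22L1 had it, and RPL26L1, RPL7L1 and RPS27L did not. The ETS motif CCGGAAG, read on both strands of the 300 bases from 250 before to 50 after the start, was in 17 core promoters (37.8%) and in 10.3% of all promoters. The YY1 motif AAGATGGC was in 4 core promoters (8.89%) and in 2.89% of all. TATAAA was in 3 core promoters (6.67%) and in 11.5% of all, and the E-box CACGTG in 2 (4.44%) and in 7.26% of all. None of these motif letters contains another. A match is a stretch of letters and not a bound site, and an annotated start can differ from the start used in these cells.

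Most core genes gave signals in the upper part of the scale, and 42 of the 51 averaged at least 50% of the array maximum. The lowest core genes were RPLP2 at 4.69% and RPL27A at 7.92%. The median over the 56 genes was 12374 and 11564 in A549 (scramble first, then hMOF siRNA, as in all pairs that follow) and, in H1299, 12976 and 12615, against medians of 378, 359, 355 and 339 over all 12830 genes that passed the minimum. The highest signal of any probe set was 20985 and 21018 on the A549 arrays and 20619.8 and 20662 on the H1299 arrays. In A549 it came from a probe set annotated to RPL23A together with SNORD42A, which the rule of exactly 1 gene left out. At least 75% of the array maximum was reached by 8 and 7 members in A549 and by 12 and 11 in H1299. RPL41, which encodes the smallest protein of the large subunit, read 19891 and 19543 in A549 and, in H1299, 19886 and 19968, on average 95.2% of the array maximum. RPL37A stood at 84.6%, RPS16 at 84.5%, RPS23 at 81.9% and RPL23A at 78.2%. Whether the scale compresses changes so close to the maximum was not tested. A signal depends on the probes as well as on the RNA, so the order of genes by signal is no order of abundance.

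**Figure D1:**
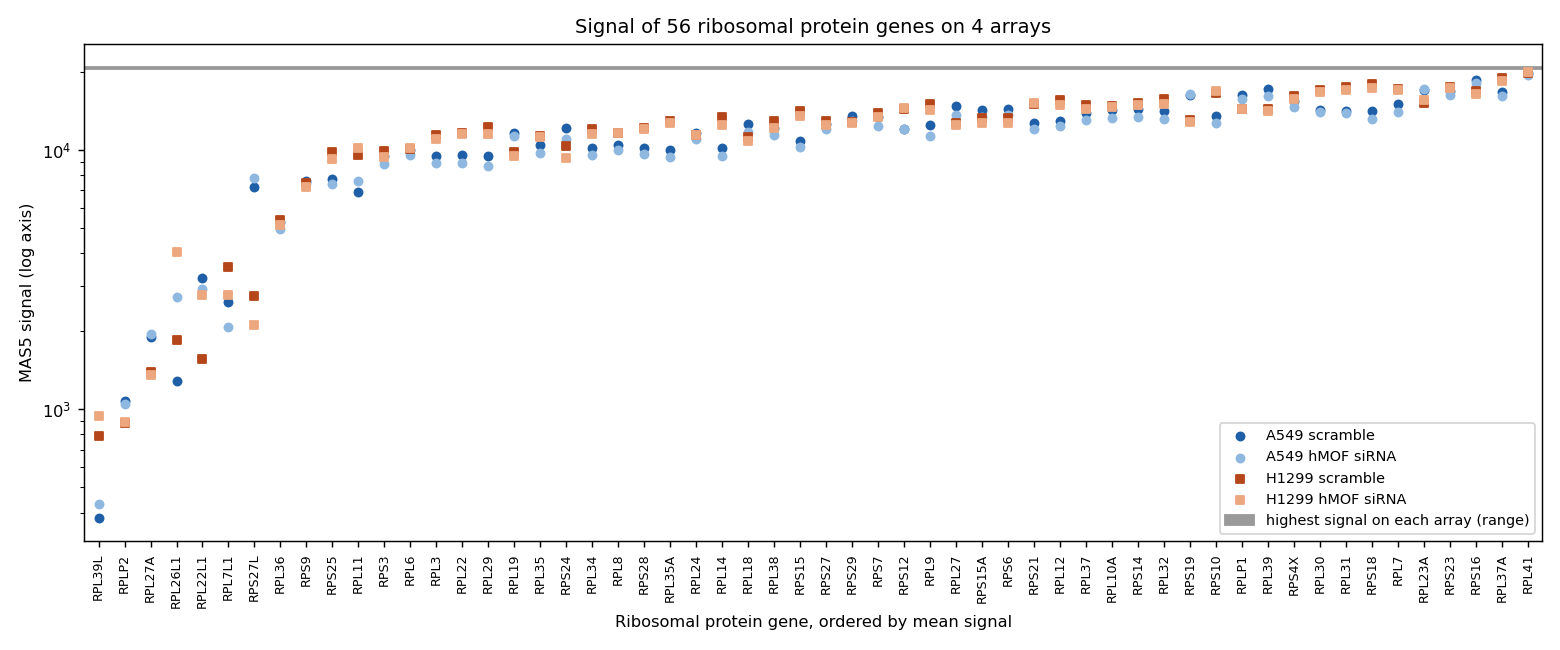
MAS5 signal (log axis) of the 56 ribosomal protein genes above the signal minimum, ordered by mean signal. Points are single arrays, circles A549 and squares H1299, dark for scramble and light for hMOF siRNA, and the grey band is the range of the highest signals on the arrays. Most core genes form a plateau just under the band, whereas the paralogs RPL26L1, RPL22L1 and RPS27L spread over the arrays.

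The first comparison asked which ribosomal protein genes passed the test for a change with hMOF siRNA. Only RPL26L1 did. In simulated runs 28.5% of 2-fold changes were recovered, at a noise level and share of changed genes not fitted to these arrays. That figure need not hold for these members, and a gene that did not pass may still have changed. RPL26L1, a close relative of the large subunit protein gene RPL26, rose from 1286 to 2719 in A549 and from 1847 to 4031 in H1299. Both hMOF siRNA arrays lay above both scramble arrays. The signal was 2.11-fold and 2.18-fold higher, and on the log2 scale, after adding an offset of 29.03 to every signal, the mean change was 1.09 (SD over lines 0.035, n = 2 lines; SE 0.11; limma adjusted p = 0.0296). No core gene passed this test in either direction. RPL26L1 was thus the only 1 of 56 members called higher (1.79%), a share near the 1.16% of all genes tested. Called lower were 0 of 56, where 2.41% of all genes were (3.57% either way). At an unadjusted p under 0.05 there were 2 members, RPL26L1 and RPL7L1, against 23.8% of all genes. At least 1.5-fold higher in A549 was RPL26L1 alone, where 3.4% of all genes were, and in H1299 RPL26L1 and RPL22L1, where 5.06% were. At least 1.5-fold lower were 0 members in A549 and 0 in H1299, where 5.78% and 7.33% of all genes were. The call on RPL26L1 rests on 1 probe set, with cell line as a block. Over the 11 alternatives that kept the block its adjusted p ran from 0.00736 to 0.0336, and without the block it was 0.9999.

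On the brightest probe set of each gene, the core genes moved little and much alike. In A549 their log2 ratios of hMOF siRNA to scramble ran from -0.14 to 0.14, with a median of -0.083, and 47 of the 51 were below 0. In H1299 they ran from -0.15 to 0.090, with a median of -0.038, and 43 of the 51 were below 0. Over all genes tested the medians were -0.020 in A549 and -0.0097 in H1299. The standard deviation over core genes was 0.048 in A549 and 0.040 in H1299, and over all genes it was 0.35 and 0.42. Bright genes in general varied less than all genes. Among genes at or above 50% of the array maximum, the 42 core genes had standard deviations of 0.036 and 0.036, and the 33 genes that are not members had 0.11 and 0.13. Medians of these bright genes were -0.084 and -0.033 for the core genes and -0.031 and 0.032 for the others. Some dimmer probe sets of core genes moved further, down or up. RPS15A had a second probe set at -0.62 in H1299. In A549, a second probe set of RPS24 stood at -0.44 and a dimmer probe set of RPL37A at 0.31.

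Of the 56 members, 42 lay below 0 in both lines, where 36.7% of all genes did, and 4 lay above 0 in both, where 31.6% did. This small shift depended on the scaling between arrays. Over the 56 members the median was -0.082 in A549 and -0.036 in H1299, and it became 0.0051 and 0.010 when each array was centred on the median of the probe sets above the minimum. That centring moved all genes alike, to medians of 0.066 and 0.037. The sign of the members' median thus depended on the scaling. The members' median minus that of all genes, -0.061 in A549 and -0.026 in H1299, was below 0 in each setting tried, from -0.091 to -0.0040 in A549 and from -0.090 to -0.011 in H1299. These differences of medians were not tested. The large and small subunits were alike, with core medians of -0.089 and -0.077 in A549 and -0.032 and -0.047 in H1299. As scaled by the authors, 2 core genes were above 0 in both lines. These were RPL11, whose protein binds the ubiquitin ligase MDM2 when it is not in a ribosome, and RPL23A. RPL11 went from 6909 to 7629 in A549 and from 9605 to 10224 in H1299 (log2 0.14 and 0.090; limma adjusted p = 0.579).

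**Figure D2:**
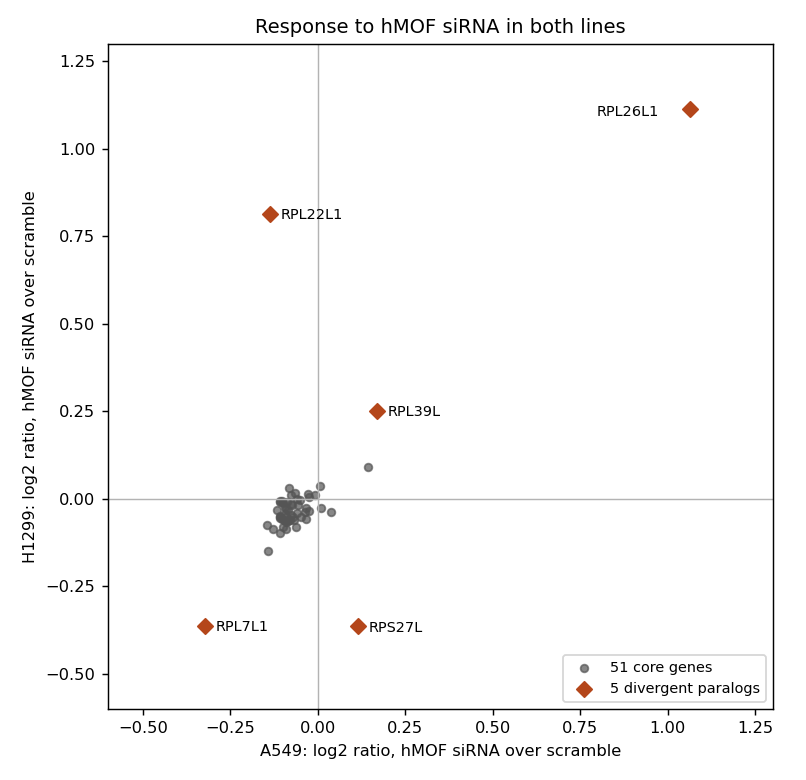
Log2 ratio of hMOF siRNA over scramble in A549 (x axis) and in H1299 (y axis) for 56 ribosomal protein genes, each point a gene read from 1 array pair per line. The 51 core genes (grey) cluster beside the origin between -0.15 and 0.14, and the 5 divergent paralogs (orange) lie outside that cluster, with RPL26L1 above 1 in both lines.

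The other extremes of the siRNA comparison were mostly paralogs too, and none passed the test. RPL22L1, a relative of the RNA-binding large subunit protein RPL22, went from 3207 to 2915 in A549 and from 1560.4 to 2767 in H1299. It was 1.77-fold higher with hMOF siRNA in H1299 and at 0.909 of the scramble signal in A549 (log2 0.81 and -0.14; limma adjusted p = 0.468). The H1299 scramble array was the lowest of the 4, and the other 3 lay between 2767 and 3207. On its brightest probe set, the relative RPL22 went from 9594 to 8927 in A549 and from 11638 to 11589 in H1299. The log2 ratios were -0.10 and -0.0062. Whether the lines differed in the response of RPL22L1 could not be tested without repeats.

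RPL7L1, a relative of RPL7 that acts in ribosome assembly, had lower signal with hMOF siRNA in both lines. It went from 2604 to 2075 in A549 and from 3557 to 2758 in H1299 (log2 -0.32 and -0.36; limma adjusted p = 0.147). That probe set carries the _x_at suffix of probes that can match other transcripts. A probe set annotated to RPL7L1 together with WAC-AS1 went the other way, from 740 to 990.1 in A549 and from 1069 to 1128 in H1299 (log2 0.41 and 0.075). RPL39L, a relative of RPL39 known from the testis and from tumours, went from 379 to 430 in A549 and from 788 to 943 in H1299 (log2 0.17 and 0.25; limma adjusted p = 0.321). RPS27L, a p53-inducible relative of RPS27, stood at 0.11 in A549 and -0.36 in H1299. Its 3 probe sets all lay above 0 in A549, from 0.11 to 0.46, and from -0.36 to 0.015 in H1299. The parents that could be read showed less movement on their brightest probe sets. On these, RPL3, RPL7, RPL22, RPL39 and RPS27 lay between -0.11 and -0.070 in A549 and between -0.052 and -0.0061 in H1299. The brightest probe sets of RPL3, RPL7 and RPL22 also carry the _x_at suffix. Some dimmer probe sets without it fell further in H1299. RPL22 had -0.19 and -0.23 on such probe sets, RPL7 had -0.26 and RPS27 had -0.17.

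**Figure D3:**
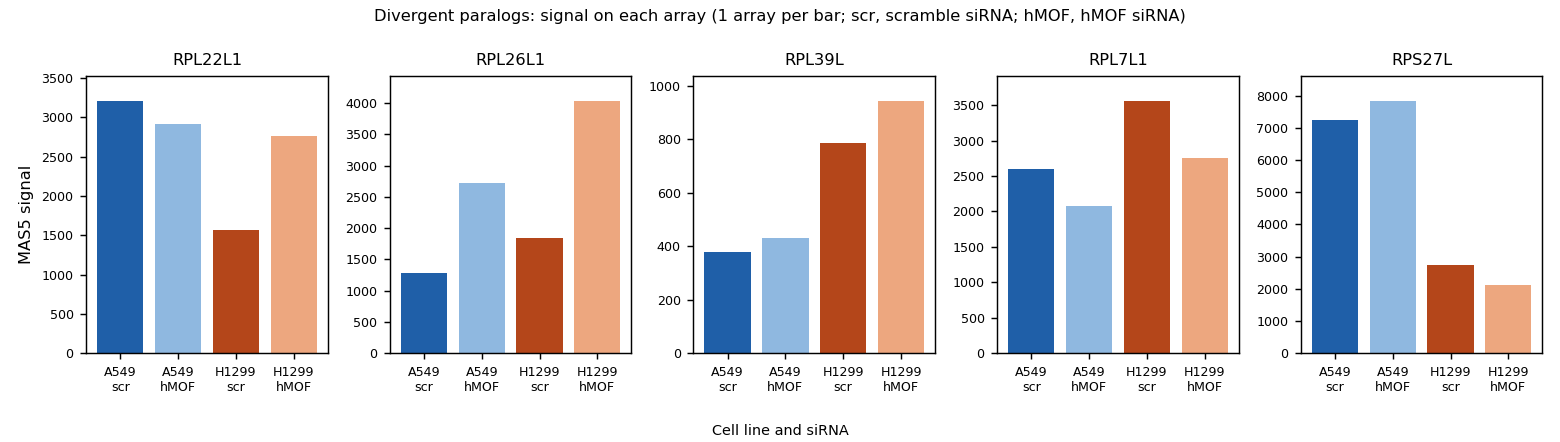
MAS5 signal (y axes start at 0 and differ between panels) of the 5 divergent paralogs on each of the 4 arrays, A549 in blue and H1299 in orange, dark for scramble and light for hMOF siRNA; each bar is 1 array, so there are no error bars. RPL26L1 is higher with hMOF siRNA in both lines, and RPL39L and RPS27L separate the lines on all arrays.

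Lowest among the core genes with hMOF siRNA was RPS24, a small subunit protein gene mutated in Diamond-Blackfan anaemia. It went from 12232 to 11077 in A549 and from 10339 to 9319.7 in H1299, a log2 ratio of -0.14 and -0.15 (mean -0.15, SE 0.11; limma adjusted p = 0.475). RPL9, RPL29 and RPL14 followed, with means of -0.11, -0.11 and -0.10 and adjusted p values from limma of 0.604, 0.608 and 0.624. Of the 13 Diamond-Blackfan anaemia genes that were measured, none passed, where 3.57% of all genes did. The acidic stalk proteins recruit translation factors to the ribosome. Of their genes, RPLP1 went from 16285 to 15709.8 in A549 and from 14389 to 14361 in H1299. RPLP2 went from 1073 to 1051 in A549 and from 886 to 895 in H1299. Neither passed the test (limma adjusted p = 0.909 and 0.980). RPLP2 and RPL27A were read from probe sets whose signals differ from those of brighter probe sets that the annotation gives to the gene together with a small nucleolar RNA.

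Ribosomal protein introns host many small nucleolar RNAs, and for 15 further ribosomal protein symbols every probe set was annotated to several genes, so those genes are not analysed here. As a check, 65 probe sets carried such a mixed annotation, and 59 were above the signal minimum. They include probe sets of analysed members, such as RPL3, RPL23A and RPL27A, and several for the same gene. The median log2 ratio of the 59 with hMOF siRNA was -0.036 in A549 and -0.016 in H1299. Of the 59, 0 were at least 1.5-fold changed in the same direction in both lines. Of the 120 probe sets of the 59 members, 109 were above the minimum, and 1 of these, that of RPL26L1, was so changed. Over all probe sets, 1183 of the 27307 above the minimum were so changed.

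Genes that work with the ribosomal proteins held single calls, to be read against the 1.16% of all genes called higher and the 2.41% called lower. Of 14 measured translation factors and further mRNAs of the TOP class, 0 rose and 0 fell with hMOF siRNA. EEF1A1, the elongation factor that brings aminoacyl-tRNA to the ribosome, went from 17695 to 17684 in A549 and from 20619.8 to 20662 in H1299, the highest signal of all on the H1299 arrays. Among 18 regulators of TOP mRNAs and of ribosomal protein genes, 0 rose and 2 fell, and 16 did not pass. MTOR, the kinase of mTORC1, went from 160.0 to 73.3 in A549 and from 202 to 74.3 in H1299 (log2 -1.02 on average, SE 0.12; limma adjusted p = 0.0347). EIF4EBP2, a repressor of cap-dependent translation that mTORC1 inactivates, went from 1756 to 752 and from 1168 to 509 (log2 -1.17 on average, SE 0.11; limma adjusted p = 0.0288). Both hMOF siRNA signals of MTOR lie below 78.1, the minimum set for the mean over arrays. Its probe set passed through the scramble arrays, so its call is no independent support and the size of the difference is uncertain. LARP1 and MYC are named after their values were seen, as was EEF1A1. LARP1, the repressor that binds TOP mRNAs, stood at 0.31 and 0.39 and did not pass (limma adjusted p = 0.147), nor did MYC, an activator of ribosome synthesis, at -0.48 and -0.51 (limma adjusted p = 0.0789).

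Of 10 chaperones dedicated to ribosomal proteins, BCCIP, which escorts RPL23, fell from 2128 to 802 in A549 and, in H1299, from 1502 to 456 (mean log2 -1.52 with SE 0.12; limma adjusted p = 0.0288), and the other 9 did not pass. Of 37 ribosome biogenesis factors, NOLC1, a nucleolar chaperone of small nucleolar RNA particles, rose (log2 1.41 and 1.70; limma adjusted p = 0.0288) and POLR1A, the largest subunit of the RNA polymerase for ribosomal RNA, fell, and 35 did not pass. The POLR1A signal went from 404 to 233 in A549 and, in H1299, from 136 to 75.04 (mean log2 -0.69 with SE 0.11; limma adjusted p = 0.0483). In H1299 with hMOF siRNA that signal lies below 78.1. The 75 mitochondrial ribosomal protein genes, which build the separate ribosome of that organelle, held 1 gene that rose, MRPS34 (log2 0.99 and 1.32; limma adjusted p = 0.0321), and 1 that fell, MRPS27 (log2 -1.12 and -1.38; limma adjusted p = 0.0296). That is near the 3.57% of all genes called either way. The log2 ratios of the mitochondrial genes spread more widely than those of the core cytosolic genes, with standard deviations of 0.28 in A549 and 0.35 in H1299 and medians of 0.039 and 0.13. The difference in spread was not tested.

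The next comparison set H1299 against A549, with the siRNAs as repeats. Most ribosomal protein genes differed by less than 1.5-fold between the lines. By limma with siRNA as a block, 10 of the 56 members were higher in H1299 and 2 were higher in A549, against 25.1% and 27.3% of all genes tested. The called share was 21.4% of members and 52.4% of all genes. At least 1.5-fold between the scramble arrays were 3 members, RPL22L1, RPL39L and RPS27L, where 38.5% of all genes were, and no core gene was. Between the hMOF siRNA arrays they were 2, RPL39L and RPS27L, where 39.8% of all genes were. The median difference of H1299 minus A549 was 0.11 over the members and -0.032 over all genes tested. In core genes it was 0.16 for the large and 0.081 for the small subunit. This contrast depends on how the variance was modelled. When limma's prior variance followed the signal, 25 members were called higher and 10 lower, against 25.5% and 27.5% of all genes. The called share was then 62.5% of members and 53% of all genes, so that members were called more often than all genes in place of less often. Without the block 1 and 2 members were called, against 15.7% and 17.8% of all genes (33.5% either way).

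The widest gap was that of RPS27L, with 7238 and 7832 in A549 against 2735 and 2119 in H1299, so that the lines did not overlap. Its log2 difference of H1299 minus A549 was -1.63 (SD over siRNAs 0.34, n = 2 siRNAs; SE 0.15; limma adjusted p = 0.00133). The other 2 probe sets of RPS27L gave -1.72 and -2.10. Its core relative RPS27 had 12662 and 12059 in A549 against 12928 and 12467 in H1299 (0.039; limma adjusted p = 0.783). RPL39L was the reverse case, higher on both H1299 arrays than on both A549 arrays, with a log2 difference of 1.04 (SD 0.058, n = 2 siRNAs; SE 0.11; limma adjusted p = 0.00177), and its parent RPL39 stood at -0.22 and did not pass. RPL26L1 was 1.44-fold higher in H1299 between the scramble arrays and 1.48-fold higher between the hMOF siRNA arrays (log2 0.54; limma adjusted p = 0.0129), and RPL7L1 was 0.43 higher (limma adjusted p = 0.0262). RPL22L1 was at 0.487 of the A549 signal under scramble and at 0.949 of it under hMOF siRNA, and did not pass (limma adjusted p = 0.122).

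Core genes with the largest differences stayed within modest folds. RPL11, whose signals are given above, was 1.39-fold higher between the scramble arrays (log2 0.45, SE 0.11; limma adjusted p = 0.0226). RPL35A (0.40), RPL14 (0.40), RPS15 (0.39) and RPL29 (0.39) were also higher in H1299, with adjusted p values from limma between 0.0322 and 0.0347. So were RPS18 (0.36) and RPS10 (0.35), named after their values were seen to complete the calls. The probe sets read for RPL35A, RPL14, RPL29 and RPS10 carry the _x_at suffix. RPL29 and RPS10 had no other kind among their member probe sets. On the brightest probe set without the suffix, RPL35A stood at 0.54 and RPL14 at 0.43. A dimmer _x_at probe set of RPS10 gave 0.035. RPL27A was the core gene called lower in H1299, with 1899.6 and 1949 in A549 against 1398 and 1361 in H1299 (-0.47; limma adjusted p = 0.0195). A probe set annotated to RPL27A together with SNORA3A gave 13337 and 12876 in A549 against 13495 and 13156 in H1299, a difference of 0.024. RPS19, a small subunit protein gene often mutated in Diamond-Blackfan anaemia, stood at -0.33 and did not pass (limma adjusted p = 0.0529).

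**Figure D4:**
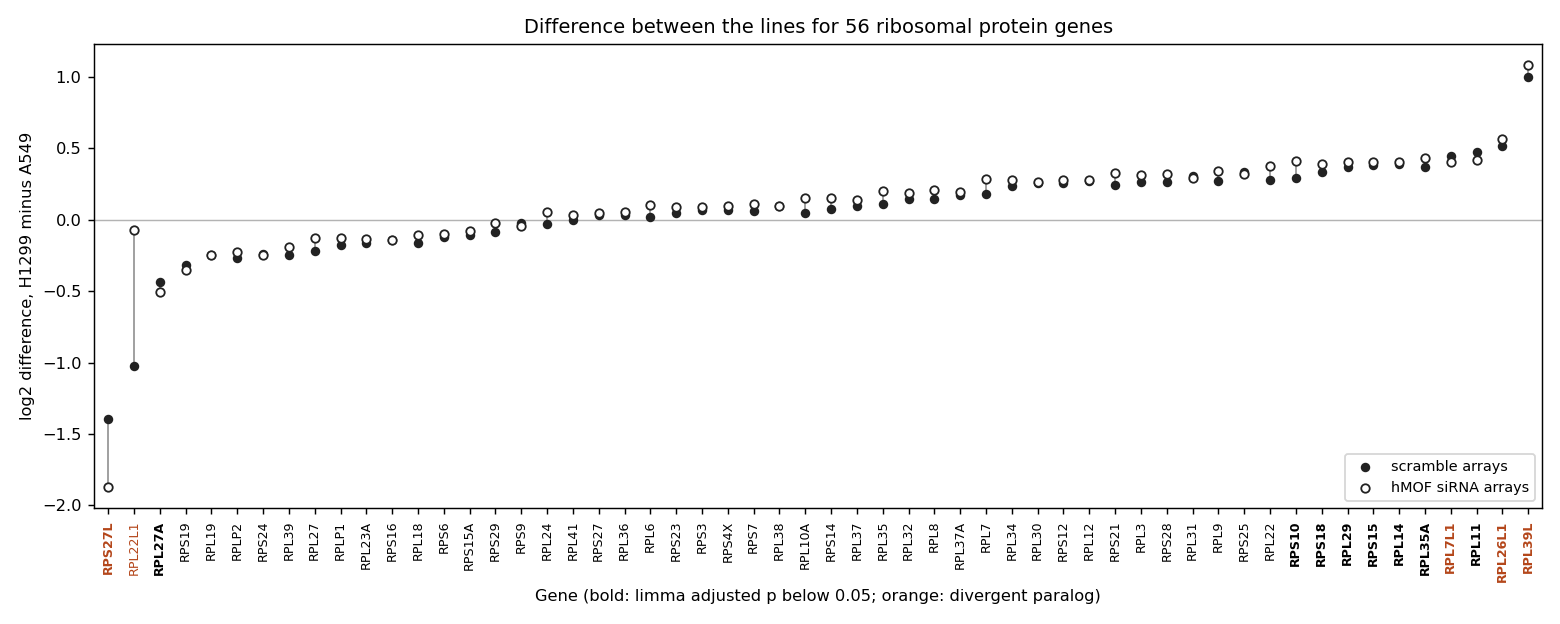
Log2 difference of H1299 minus A549 (y axis) for 56 ribosomal protein genes in order of the mean; filled points compare the scramble arrays, open points the hMOF siRNA arrays, and the grey line joins both. Core genes lie between -0.51 and 0.47, RPS27L lies lowest and RPL39L highest, and RPL22L1 has the points farthest apart.

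A second kind of line difference appeared between probe sets of the same gene. Of the 56 members, 31 had at least 2 probe sets above the minimum. In 6 of them, RPL31, RPL37, RPL37A, RPS21, RPS24 and RPS28, the probe sets lay over 1 log2 unit apart in H1299 minus A549, which is 19.4% of the 31 (these genes are named after their values were seen), against 15.4% of the 5912 genes with several probe sets. That share is close to the background, so it marks these genes no more than others. The probe set of RPS21 with the highest signal gave 12716 and 12047 in A549 against 15042 and 15149 in H1299, a difference of 0.29. Its other one gave 924 and 885 in A549 against 4816 and 4285 in H1299, a difference of 2.29. Both H1299 arrays were thus several times above both A549 arrays on the second probe set and slightly above them on the first.

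RPS28 behaved alike, at 0.29 on its brightest probe set and 1.83 on another, which had 141 and 145 in A549 against 658 and 514 in H1299. RPL37 gave 0.12 on its brightest probe set and 1.12 to 1.72 on its other 3, and RPL31 gave 0.30 against 1.29 and 1.56. RPS24 differed in the other direction, at -0.25 and -1.34, the latter with 561 and 407 in A549 against 195 and 151 in H1299. RPL37A had probe sets on both sides of 0, from -0.97 to 0.68. Whether these probe sets read other transcript forms, introns or related loci was not tested. In the siRNA comparison, 0 of the 31 genes had probe sets over 1 log2 unit apart in either line. Of all 5912 genes with several probe sets, 1.86% did in A549 and 4.41% in H1299, so 0 of 31 does not mark the members.

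**Figure D5:**
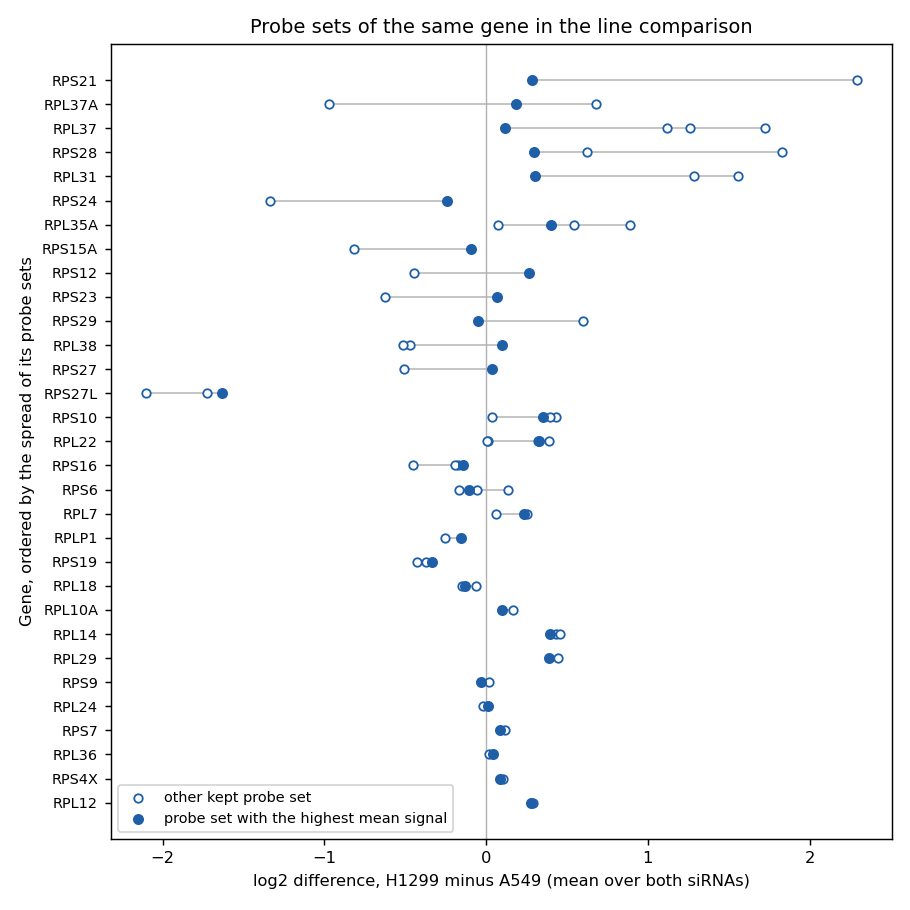
Log2 difference of H1299 minus A549 (x axis, mean over both siRNAs) for each probe set above the signal minimum in the 31 members with at least 2; filled points are the probe set with the highest mean signal, open points the others. Probe sets of RPS21 lie at 0.29 and 2.29, whereas the filled points of core genes stay between -0.33 and 0.40.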

How the data were processed

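Values are the linear MAS5 signal intensities that the authors deposited, 1 array per sample, as named in the submitters' processing notes; for version, scaling target and detection calls, the sources used here say nothing. Gene names come from the platform annotation of each probe set, and looking up gene identifiers in the RefSeq table changed 0 symbols. To every signal 29.03, the 20th percentile, was added before log2, which shrinks ratios of dim genes. Probe sets with a mean at or above 78.1, the 50th percentile, were kept, and the brightest one stood for its gene, which left 12830 genes. Limma 3.58.1 in R 4.3.3 (lmFit, eBayes) was fitted to all of them with terms for line and siRNA. Each serves as the block of the other. The threshold was a Benjamini-Hochberg adjusted p of 0.05. The fit has 1 residual and 3.74 prior degrees of freedom per gene, so the variance of each gene is drawn largely from all genes. In the siRNA comparison RPS16, with an SD over lines of 0.0002, and RPL26L1, with 0.035, both had an SE of 0.11. In 10 simulated runs of the siRNA comparison with 12830 genes, 28.5% of 2-fold and 96.3% of 4-fold changes were recovered. The noise level and the number of changed genes in these runs were fixed settings and may differ from those of the real arrays. Precision is limited by having 4 arrays.

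Named genes were KAT8, the called, most extreme, brightest and dimmest members, the stalk genes and RPL11, the divergent paralogs with their parents, members with probe sets at least 1.5-fold apart in opposite directions, and called genes of the other lists. Members and lists were chosen with earlier results of these data known. Alternatives were other offsets, filters, scalings, probe set rules, variance models, no block, and each line or siRNA alone. Centring on the filtered probe sets, and leaving out the paralogs or the brightest members, were added after seeing the data. Motifs were searched in RefSeq promoters of GRCh38.p14.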

Additional observations from a re-analysis of the deposited data

Results flagged for a closer look

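For 6 named members the log2 ratio with hMOF siRNA had opposite signs in the lines, which was not tested since each line has 1 array pair. RPL22L1 was at -0.14 in A549 and 0.81 in H1299, and RPS27L at 0.11 and -0.36. The remaining pairs were small, with RPL27A at 0.037 and -0.038, RPL41 at -0.025 and 0.0059, RPLP2 at -0.029 and 0.015, and RPS19 at 0.0079 and -0.027.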

How the results depend on the processing

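The call on RPL26L1 and the lack of lower calls with hMOF siRNA held under every offset, filter, scaling and probe set rule tried. Without a block, 0 members were called higher with hMOF siRNA, 1 was called higher in H1299 and the adjusted p of RPL26L1 was 0.9999. That fit called 0 of all 12830 genes higher and 0 lower with hMOF siRNA, so every siRNA call above, KAT8 included, was lost. At 1.5-fold in H1299 alone, 2 members were higher. Without the divergent paralogs, 0 members were called higher with hMOF siRNA and 1 was lower in H1299. The members' median siRNA ratio depended on the scaling. In A549 it was -0.017 after quantile normalization, -0.00044 after loess on signal and 0.0051 after centring on the filtered probe sets. In H1299 it was -0.092 after loess and 0.010 after that centring. The same centring gave a median line difference of 0.16. It called 17 of 56 members higher in H1299, where it called 3596 of all 12830 genes. Over all genes it called 509 higher and 518 lower with hMOF siRNA, against 149 and 309, so that the lower share of calls was 50.4% in place of 67.5%; quantile normalization called 294 and 381 (56.4% lower) and loess 293 and 410 (58.3% lower). With the prior variance following the signal, 25 members were higher and 10 lower in H1299, 62.5% of members against 53% of all genes. Averaging probe sets gave 5 of 56 members lower in H1299, where 3460 of all 12830 genes were. Without _x_at probe sets the median line difference was 0.066 over 48 members. At 1.5-fold between scramble arrays alone 1 member was higher in H1299, and between hMOF siRNA arrays alone 1 was higher and 1 lower. The cause of these shifts was not tested. The labels carry no replicate numbers, and the pairing used throughout is that of arrays within a cell line or a siRNA.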
